A study of Mus musculus with 2 samples.

Results

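Type 1 conventional dendritic cells were taken from 2 single-cell RNA-seq libraries of injured mouse kidney by their transcripts. A barcode was a member when it held at least 1 UMI of Xcr1 and Clec9a together, at least 5 UMIs of the class II genes H2-Aa and H2-Ab1 together, fewer than 10 UMIs of C1qa, C1qb and C1qc together and no UMI of Cd3e. A UMI is a molecular tag that counts 1 captured transcript. The rule was applied to barcodes of 500 UMIs and 200 genes or more whose mitochondrial share was not over 50%, and it took 79 of 9452 in the control library and 84 of 10026 in the haplodeficient library, 163 of 19478 in all. Because the members were chosen by measured UMIs of these genes, the levels of Xcr1, Clec9a, H2-Aa and H2-Ab1 are given as a description.

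Both libraries came from kidneys collected 14 days after ischemia-reperfusion injury by clamping the artery of 1 kidney, and both groups of mice had 4 tamoxifen injections. Control mice were labelled Cre-, and haplodeficient mice were labelled Cdh5-CreERT2; Phd3f/+, that is, 1 floxed allele of the oxygen sensor Phd3 (gene symbol Egln3) and a tamoxifen-activated Cre driven by the Cdh5 promoter, which is active in endothelial cells. The labels do not say whether the controls carried a floxed allele, nor how many animals went into a library. Each group is 1 library and the design allows no test, so every difference below compares these 2 libraries, has no replicate check and carries no p-value. Egln3 itself gave 3 UMIs in the 79 control cells and 3 UMIs in the 84 haplodeficient cells, a level that checks nothing about the allele.

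Type 1 conventional dendritic cells depend on the transcription factors Irf8 and Batf3 and on the cytokine receptor Flt3. They take up dead cells, for which Clec9a is a receptor for exposed actin filaments, and present the captured antigen on class I molecules to CD8 T cells, a route called cross-presentation; Xcr1 is a chemokine receptor for Xcl1 made by T and natural killer cells. On maturation dendritic cells gain Ccr7, which guides them towards lymph nodes, together with costimulatory molecules, cytokines and inhibitory ligands such as Cd274 (PD-L1).

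The label was checked against 17 genes of this cell type that the rule did not use. The cells held a median of 13 of these genes in the control library and 11.5 in the haplodeficient library. Members with 6 or more Xcr1 and Clec9a UMIs, 48 control and 35 haplodeficient cells, had a median of 14 identity genes in both libraries, and 48 of the 48 and 33 of the 35 had at least 10. Members with a single rule UMI, 10 control and 21 haplodeficient cells, had a median of 3.5 and 3 identity genes. Between these, members with 2 rule UMIs had at least 10 identity genes in 2 of 4 control and 3 of 10 haplodeficient cells, and those with 3 to 5 rule UMIs in 13 of 17 and 10 of 18 cells. Over all members this held for 64 of 79 control and 46 of 84 haplodeficient cells. The label was thus met by nearly every cell with 6 or more rule UMIs, by part of the cells with 2 to 5, and by 1 of 10 control and 0 of 21 haplodeficient cells taken on 1 UMI.

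Genes of other cell types marked the same split. A cell counted as carrying another type when a panel of 3 to 8 markers of that type reached 5 UMIs and 3 times the amount that 10% free RNA would give, and 15 of 79 control and 30 of 84 haplodeficient cells did. Plasmacytoid dendritic cell genes were found in 5 control and 12 haplodeficient cells, endothelial genes in 3 and 12, monocyte genes in 3 and 9, macrophage genes in 4 and 4, and tubule genes in 4 and 1. Of the members with a single rule UMI, 8 of 10 control and 19 of 21 haplodeficient cells carried another type. The summed endothelial panel ranged from 0 to 40 UMIs per control cell and from 0 to 158 UMIs per haplodeficient cell, and the tubule panel from 0 to 1168 and from 0 to 75. The 64 control and 54 haplodeficient members without such genes are called unmixed cells, a division chosen after the data were seen, and levels of single genes below are mostly those of unmixed cells, with values for all members where stated. Unmixed cells could still hold UMIs of other types short of the limit. The highest unmixed control and haplodeficient cells held 4 and 28 UMIs of the macrophage panel, 16 and 6 of the tubule panel, 2 and 3 of the type 2 panel, 2 and 3 of the plasmacytoid panel and 1 and 2 of the endothelial panel. The defining genes Cdh5 (endothelium), Cd209a (type 2 dendritic cells), Mrc1 (macrophages), Cd3d and Trbc2 (T cells) and Cd79a (B cells) were at 0 in unmixed cells of both libraries, which were chosen for few such UMIs.

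**Figure D1:**
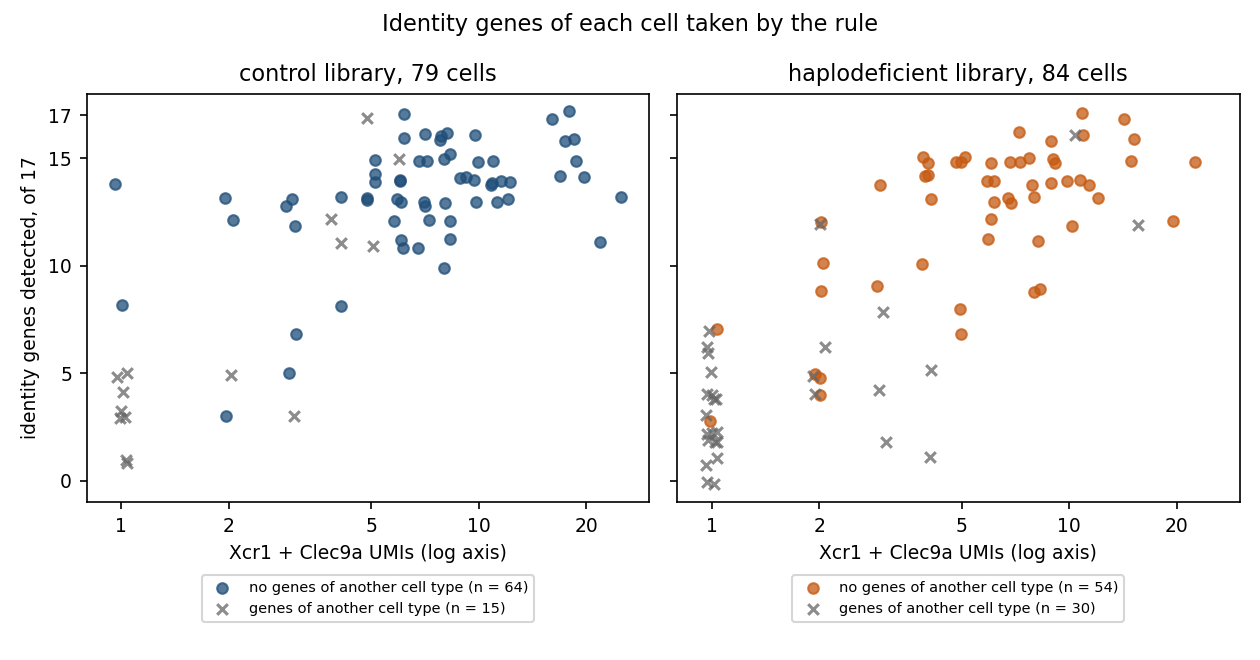
Number of identity genes detected, of 17 (vertical axis, with a small random shift for display), against the summed Xcr1 and Clec9a UMIs (log axis) of each cell, in the control library (left, 79 cells) and the haplodeficient library (right, 84 cells). Filled points are cells without genes of another type, crosses are cells with them. Crosses gather at 1 rule UMI and few identity genes, and cells with 6 or more rule UMIs have a median of 14 identity genes in both libraries.

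The cells at the edges of the rule resembled those outside more than the rest inside. Members with 5 to 9 class II UMIs, 3 control and 8 haplodeficient cells, had a median of 3 and 2.5 identity genes, and the 14 and 25 barcodes just outside with 1 to 4 class II UMIs had a median of 2 and 2. Barcodes left out for 10 or more C1q UMIs, 22 control and 51 haplodeficient, had a median of 4 identity genes in both libraries, and 1 barcode in each library had at least 10. An Xcr1 or Clec9a UMI was also present in 0.468% of 7483 control barcodes with fewer than 5 class II UMIs (exact Clopper-Pearson 95% interval 0.326 to 0.650%, median depth 8980 UMIs) and in 1.05% of 7868 such haplodeficient barcodes (0.841 to 1.31%, median depth 5384 UMIs). Among barcodes with at least 5 class II UMIs and no Cd3e UMI, members made up 4.03% in the control library (3.20 to 4.99%). In the haplodeficient library they made up 3.97% (3.18 to 4.89%). The share outside the class II cells was below these in both libraries.

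Members made up 0.836% of retained barcodes in the control library (interval 0.662 to 1.04%) and 0.838% in the haplodeficient library (0.669 to 1.04%). Among cells with at least 1 UMI of Ptprc, the leukocyte gene for CD45, the shares were 4.24% (3.32 to 5.33%, 70 of 1651 cells) and 1.71% (1.33 to 2.16%, 69 of 4029 cells). Against type 2 dendritic cells, the class II cells with Cd209a, Clec10a or Mgl2 and neither Xcr1 nor Clec9a, members formed 44.6% of both types together in the control library (37.2 to 52.3%, 79 against 98 cells) and 37.0% in the haplodeficient library (30.7 to 43.6%, 84 against 143 cells). Unmixed members were 0.677% and 0.539% of retained barcodes (0.522 to 0.864% and 0.405 to 0.702%), and 3.69% and 1.22% of Ptprc-positive cells (2.84 to 4.72% and 0.901 to 1.60%). Set beside the same 98 and 143 type 2 cells, they formed 39.5% and 27.4% of both types together (31.9 to 47.5% and 21.3 to 34.2%). These type 2 cells were not filtered for genes of other types. Only 44 of the 98 control and 109 of the 143 haplodeficient type 2 cells were without them, 0.466% and 1.09% of retained barcodes. Both shares beside type 2 cells therefore rest on partly mixed type 2 cells, mostly so in the control library. The intervals, here and below, cover counting error only. The share of members among retained barcodes was the same in both libraries within this error, while the share of Ptprc-positive cells was lower in the haplodeficient library, whose number of Ptprc-positive cells was the larger.

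Median depth was similar in all members, and higher in the haplodeficient library among unmixed cells. The control library held 134190236 UMIs and the haplodeficient library 114668145 UMIs in all barcodes, and retained barcodes had a median of 9160 and 5861.5 UMIs. Members had a median of 9721 UMIs (871 to 41075) and 9905 UMIs (946 to 70564), and the deepest haplodeficient member alone gave 7.55% of that library's member UMIs. Unmixed cells had a median of 9538 and 11012.5 UMIs. Counts of unmixed cells with a gene therefore compare unlike depths. The 2 libraries shared 28 retained barcode sequences, none of them a member. The median mitochondrial share was 2.84% in control and 1.71% in haplodeficient members, against 10.2% and 2.72% over all retained barcodes.

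Levels are in CPM, the UMIs of a gene summed over the cells of a library, divided by all UMIs of those cells and scaled to 1000000. A gene was eligible when its level averaged 50 CPM or more across the libraries and rested on 30 UMIs or more, and it passed the size rule at an absolute log2 ratio of at least 1, after adding 5 CPM to both levels, provided that the exact Poisson 95% intervals of both levels were apart. In all members 228 of 3096 eligible genes passed between the libraries (7.36%), 101 higher in the haplodeficient library (3.26%) and 127 lower (4.10%). Weighting each member equally in place of summing UMIs gave 116 higher and 92 lower. In unmixed cells 102 of 2715 passed (3.76%), 29 higher (1.07%) and 73 lower (2.69%), a split that shifted towards lower. These percentages are the background for each gene list below, and the median log2 ratio over all eligible genes was 0.02 in members and -0.05 in unmixed cells. The part that cells carrying other types have in the difference between the 2 counts was not tested.

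The genes of antigen uptake and of the vesicle steps of cross-presentation differed little between the libraries. Of 23 listed genes 17 were eligible in members, with a median log2 ratio of -0.09, and 1 passed the size rule. In unmixed cells 16 were eligible, 5 higher and 11 lower in the haplodeficient library, with a median of -0.23, and none passed. The gene that passed in members was Cybb, the catalytic subunit of the phagosomal NADPH oxidase, at 26.8 and 170 CPM, but in unmixed cells its UMIs came from 1 cell in each library (1 and 47 UMIs).

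Wdfy4, a BEACH-domain protein required for cross-presentation of cell-bound antigen (chr14:32959547-33185508 in GRCm38, minus strand), was more abundant than Tlr3, Rab43, Rab7b and Mpeg1 in unmixed cells of both libraries. It stood at 1521 CPM in control unmixed cells (1426 to 1620) and at 1102 in haplodeficient unmixed cells (1018 to 1190), and was detected in 62 of 64 and 51 of 54 cells. The haplodeficient level was 0.724 times the control level (exact conditional 95% interval 0.655 to 0.801), and no single cell gave more than 5.00% of the UMIs in either library. In type 2 dendritic cells without genes of other types, 44 control and 109 haplodeficient cells, Wdfy4 stood at 155 and 172 CPM. Wdfy4 thus separated the 2 dendritic cell types by far more than it separated the libraries.

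Tlr3, the endosomal receptor for double-stranded RNA, stood at 209 and 135 CPM in unmixed cells (55 of 64 and 32 of 54 cells), 0.645 times the control level (0.482 to 0.859), and at 2.54 and 4.25 CPM in type 2 cells. Rab43, a GTPase that takes part in cross-presentation by these cells, stood at 584 and 447 CPM (ratio 0.765, 0.651 to 0.899), and Rab7b, a lysosomal GTPase, at 440 and 312 (0.709, 0.585 to 0.858). Mpeg1, a pore-forming protein of phagosomes also called perforin-2, differed by less than counting error, at 786 and 738 CPM (0.939, 0.824 to 1.07). These genes were lower in the haplodeficient library or equal within counting error, all short of the size rule.

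Other genes of the list were higher in the haplodeficient cells. Ly75, the uptake receptor DEC-205, stood at 93.4 and 159 CPM in unmixed cells (ratio 1.70, 1.21 to 2.40). Cyba, the membrane partner of Cybb, stood at 680 and 1143 CPM (1.68, 1.49 to 1.90), with 25.2% of the haplodeficient UMIs from 1 cell, and its log2 ratio was 0.74 in unmixed cells, 0.68 in type 2 cells and 0.51 in macrophages. Cd36, a scavenger receptor, stood at 239 and 247 CPM.

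The class I loading machinery was slightly higher in the haplodeficient library and none of its genes passed the size rule. Of 20 listed genes 18 were eligible, with a median log2 ratio of 0.19 both in members (14 higher, 4 lower) and in unmixed cells (12 higher, 6 lower). The list's median was 0.36 in type 2 cells without genes of other types (12 higher, 3 lower) and 0.35 in macrophages (12 higher, 2 lower). The immunoproteasome subunit Psmb9 stood at 622 and 923 CPM in unmixed cells (562 to 686 and 846 to 1004), a ratio of 1.48 (1.30 to 1.69), and was detected in 60 of 64 and 52 of 54 cells. Its neighbour Psmb8, another immunoproteasome subunit, stood at 991 and 1293 CPM (1.31, 1.17 to 1.45). The log2 ratio of Psmb8 was 0.38 in unmixed cells, 0.36 in type 2 cells and 0.44 in macrophages, and that of Psmb9 was 0.57, -0.04 and 0.58.

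Sec61b and Sec61g, subunits of the channel of the endoplasmic reticulum membrane, stood at 453 and 619 CPM (ratio 1.37, 1.17 to 1.60) and at 584 and 846 CPM (1.45, 1.26 to 1.66) in unmixed cells. The peptide transporter genes differed by less than counting error, Tap1 at 217 and 210 CPM (ratio 0.968, 0.752 to 1.24) and Tap2 at 122 and 135 (1.11, 0.798 to 1.53). The class I heavy chain H2-K1 stood at 1215 and 1110 CPM (0.913, 0.822 to 1.02) and H2-D1 at 1217 and 1446 (1.19, 1.08 to 1.31). The light chain B2m stood at 1302 and 1177 CPM. Of the class I loading genes named here, Psmb8, Psmb9, Sec61b, Sec61g and H2-D1 were higher in the haplodeficient library beyond counting error, each by less than 1.5 times.

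**Figure D2:**
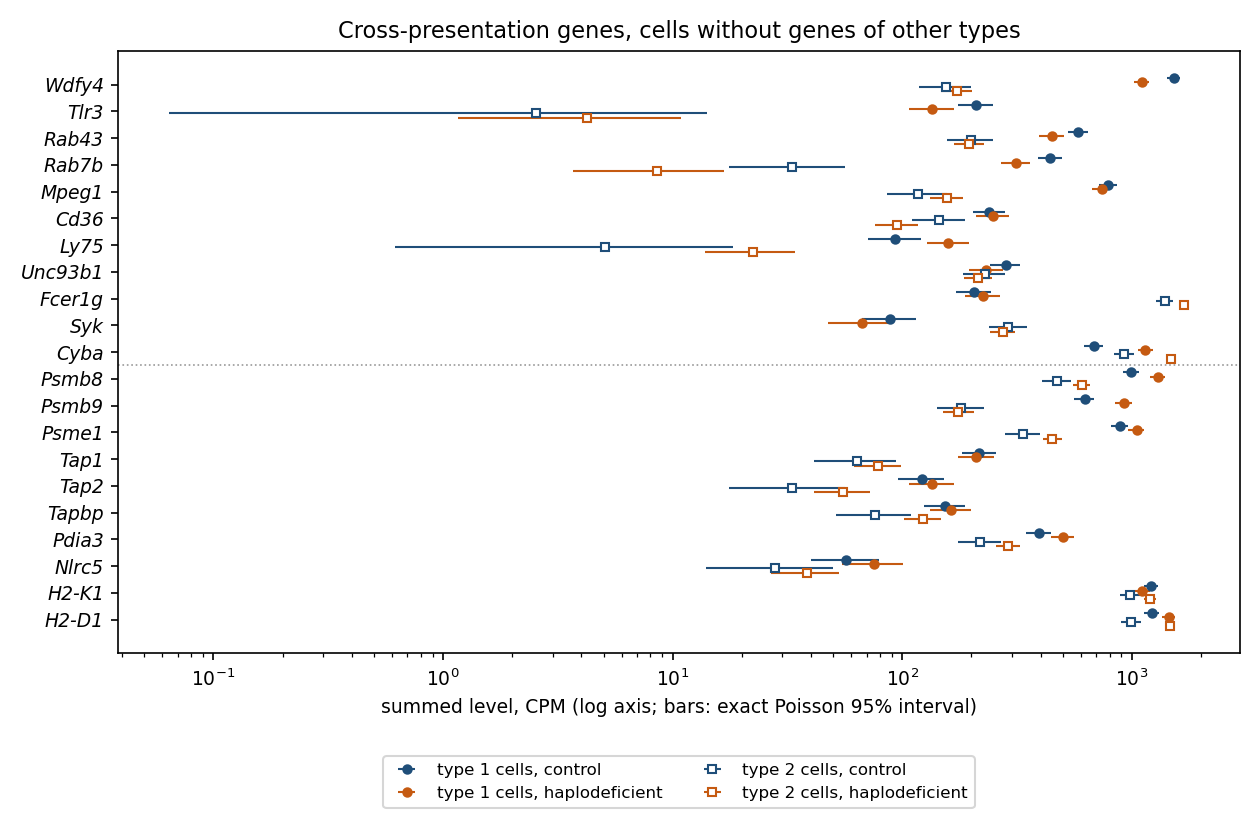
Summed level in CPM (log axis) of 21 cross-presentation genes in type 1 cells (filled circles) and type 2 cells (open squares) without genes of other types, in the control (blue) and haplodeficient (orange) libraries; bars are exact Poisson 95% intervals. Genes above the dotted line belong to uptake and vesicles, genes below it to class I loading. Tlr3 is at 209 and 135 in type 1 cells against 2.54 and 4.25 in type 2 cells, while H2-K1 is nearly the same in all 4 groups.

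Cross-presentation genes separated type 1 from type 2 cells more than they separated the libraries. Between the types, a gene counted when it passed the size rule in the same direction in both libraries, which 110 of 2808 genes did on the higher side (3.92%) and 131 on the lower side (4.67%) for members. For unmixed cells 141 of 2554 genes were higher in type 1 cells (5.52%) and 200 lower (7.83%). Of the 16 uptake and vesicle genes that could be compared in unmixed cells, Wdfy4, Tlr3, Rab43, Rab7b and Mpeg1 were higher, and Cybb, Rac2, Syk and Fcer1g were lower. Of the higher genes, Wdfy4, Tlr3 and Rab7b also belong to the 17 identity genes of type 1 cells, so the 2 lists overlap. Fcer1g, the signalling chain of Fc receptors, stood at 206 and 225 CPM in type 1 cells and at 1390 and 1683 in type 2 cells, and Syk, the kinase downstream of it and of Clec9a, at 88.6 and 66.5 against 290 and 273. Of 17 class I loading genes Psmb8, Psmb9, Psme1, Tap1 and Tap2 were higher and none was lower, with a median log2 difference of 0.84 among control cells and 0.39 among haplodeficient cells, against 0.01 and -0.03 over all genes compared.

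Identity genes were among the 15 genes farthest above type 2 cells. Irf8 stood at 1182 and 1090 CPM in unmixed type 1 cells and at 33.0 and 38.3 in type 2 cells. Itgae, the CD103 integrin chain, stood at 305 and 273 against 10.2 and 13.8, Gcsam, a signalling adaptor known from germinal centre B cells, at 157 and 111 against 0 and 0, and P2ry14, a receptor for UDP-glucose, at 296 and 159 against 15.2 and 4.25. On the other side Cd209a and Mgl2, lectins of type 2 cells that helped choose those cells, stood at 0 and 0 against 384 and 376 and at 7.91 and 11.9 against 950 and 1223. S100a4 was at 49.1 and 8.53 against 1596 and 1278 CPM, with all 31 control UMIs from 1 cell, and Ptgs2, the inducible cyclooxygenase, at 1.58 and 0 against 152 and 186. The inflammatory cytokine gene Il1b stood at 491 and 483 CPM in type 1 cells and at 3029 and 2915 in type 2 cells.

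Class II presentation genes that the rule did not use were level between the libraries. Of 12 such genes 12 were eligible in members with a median log2 ratio of -0.01, and 11 in unmixed cells with a median of 0.00. Cd74, the invariant chain, stood at 13761 and 13777 CPM in unmixed cells, and the class II chain gene H2-Eb1 at 6584 and 7261. Ciita, the class II transactivator, stood at 195 and 131 CPM (ratio 0.675, 0.501 to 0.904), and March1, a ubiquitin ligase that removes class II and Cd86 from the surface, at 101 and 58.0 (0.573, 0.366 to 0.881). The chains were thus level within about 1.10 times, and these regulators were lower in the haplodeficient cells.

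Among the lysosomal enzymes Ctss, the protease that cleaves the invariant chain, stood at 334 and 605 CPM in unmixed cells (1.81, 1.53 to 2.16), with 38.3% of the haplodeficient UMIs from 1 cell. Ifi30, a thiol reductase of antigen processing, stood at 364 and 621 (1.71, 1.44 to 2.02) with at most 9.13% from 1 cell. Lgmn, an asparaginyl protease, passed the size rule as lower in all members, at 159 and 26.7 CPM, but stood at 12.7 and 25.6 in unmixed cells, the opposite order. In all members 41.5% of the control Lgmn UMIs came from 1 cell, and 4 control cells carried tubule genes, whose part in this value was not tested.

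Genes of dendritic cell maturation were slightly higher in the haplodeficient library. Of 32 listed genes 22 were eligible in members, 15 higher and 7 lower with a median log2 ratio of 0.34, and in unmixed cells 25 were eligible, 19 higher and 6 lower with a median of 0.25. The size rule was passed by 2 of them in each set, both higher, against 3.26% and 1.07% of all eligible genes. These were Fabp5, a fatty acid binding protein, and Ccl17, a chemokine that attracts Ccr4-positive T cells. Ccl17 stood at 31.6 and 128 CPM in unmixed cells, from 3 of 64 and 9 of 54 cells, and 1 haplodeficient cell gave 53.3% of the UMIs. Fabp5 stood at 4.75 and 131 CPM, from 3 and 12 cells, with 75.3% from 1 haplodeficient cell. Where members were limited to fewer than 3 C1q UMIs, the list's median was 0.09 and 2 genes passed as lower and none as higher.

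The costimulatory genes Cd86 and Cd83 were present in nearly every unmixed cell at levels that hardly differed between libraries. Cd86 stood at 647 and 670 CPM (586 to 713 and 606 to 740, in 63 of 64 and 49 of 54 cells), and Cd83 at 1024 and 953 (946 to 1106 and 876 to 1036, in 63 and 48 cells). Cd80, the other ligand of Cd28, stood at 125 and 98.9 CPM, with overlapping intervals. Cd40, the receptor for T cell help, was rarer, at 28.5 and 66.5 CPM from 11 and 12 cells (ratio 2.34, 1.30 to 4.34).

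The NF-kappaB subunit Relb, which takes part in dendritic cell maturation, stood at 68.0 and 135 CPM in unmixed cells (49.2 to 91.6 and 107 to 168), from 19 of 64 and 27 of 54 cells. Its ratio of 1.98 (1.35 to 2.94) lay just short of the size rule, and 1 control cell held 25.6% of the control UMIs. Traf1, a signalling adaptor, stood at 179 and 276 CPM (1.54, 1.21 to 1.98) and Icam1, an adhesion molecule, at 53.8 and 101 (1.87, 1.21 to 2.94). In type 2 cells the log2 ratios of Relb, Traf1 and Icam1 were 0.39, 0.32 and 0.28, against 0.94, 0.61 and 0.84 here.

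Among genes of the regulatory program of mature dendritic cells, Cd274, the inhibitory ligand PD-L1, passed the size rule in unmixed cells. It stood at 116 CPM in 20 of 64 control cells (90.5 to 145) and at 240 in 27 of 54 haplodeficient cells (202 to 284), a ratio of 2.08 (1.56 to 2.80) with at most 13.7% of the UMIs from 1 cell. In all members it stood at 88.3 and 173 CPM, with a log2 ratio of 0.93 that was short of the rule. Over 19 alternative settings its log2 ratio was 0.80 to 1.23 and it passed in 7. The setting of cells with at least 10 identity genes was not among these. The log2 ratio was -0.48 in type 2 cells and 0.11 in macrophages. Of the 10 genes on this list Cd274 was the single eligible one in unmixed cells. Socs1, a brake on cytokine signalling, was not eligible, at 15.8 and 52.9 CPM with 41.9% of the haplodeficient UMIs from 1 cell.

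**Figure D3:**
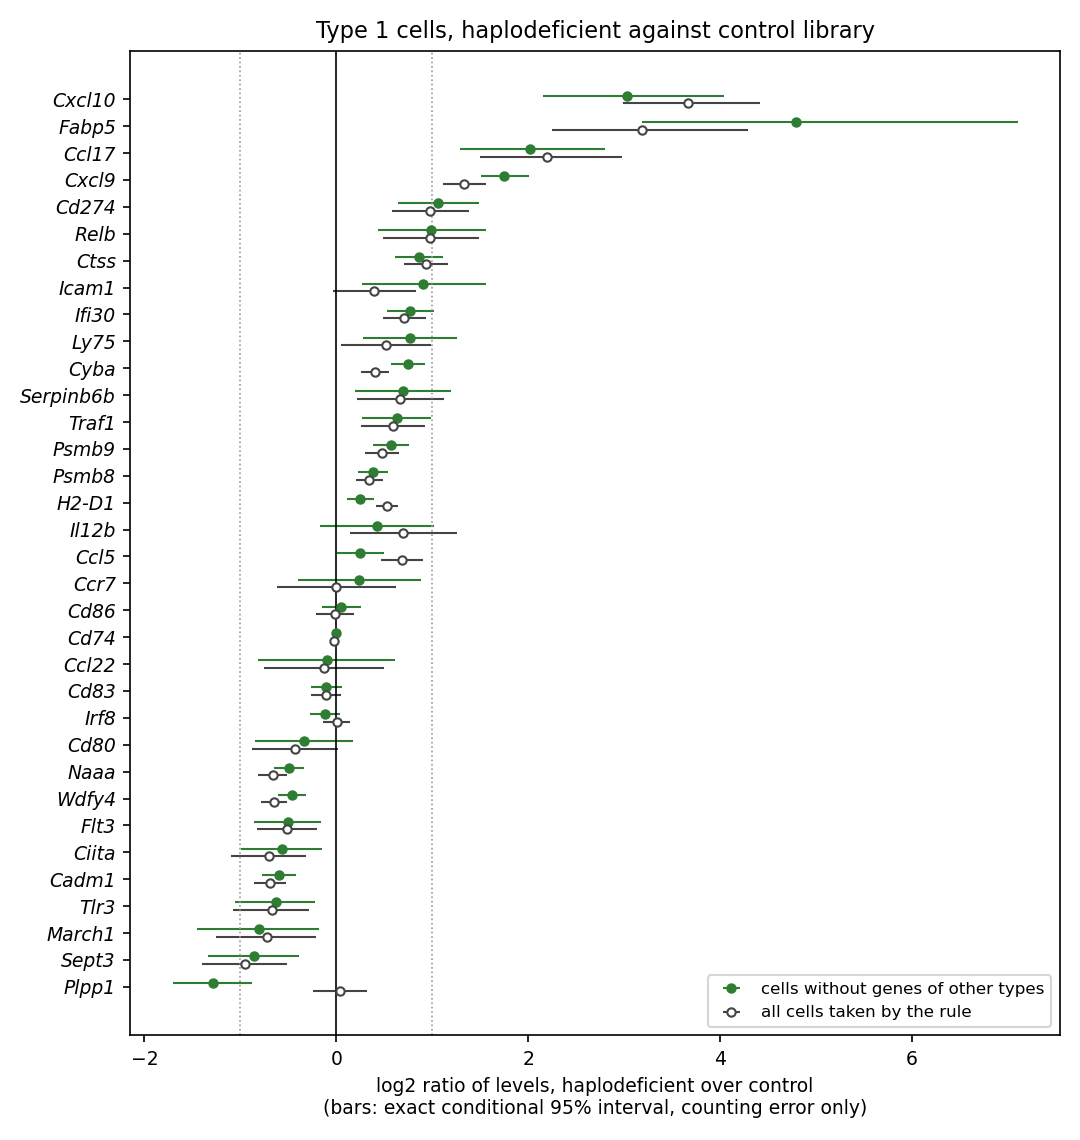
Ratio of the haplodeficient to the control level on a log2 scale for 34 listed genes, in cells without genes of other types (green, filled) and in all cells taken by the rule (grey, open); bars are exact conditional 95% intervals for counting error and dotted lines mark log2 ratios of -1 and 1. Most genes of presentation and costimulation lie between the dotted lines, and Cxcl9, Cxcl10, Ccl17 and Fabp5 lie to the right of them in both sets.

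Mature cells were few. A member was counted as mature with at least 2 UMIs of Ccr7 and Fscn1 together, Fscn1 being the actin bundler fascin. This held for 4 of 79 control members (5.06%, 1.40 to 12.5%) and 7 of 84 haplodeficient members (8.33%, 3.42 to 16.4%), and for 3 of 64 (4.69%, 0.977 to 13.1%) and 5 of 54 (9.26%, 3.08 to 20.3%) unmixed cells. After thinning each cell to 1000 UMIs, 2 of 78 and 2 of 83 members remained mature. Of the 7 haplodeficient cells, 2 had Fscn1 without Ccr7 and carried endothelial genes. Among the 98 control and 143 haplodeficient type 2 cells, not filtered for genes of other types, 5.10% and 6.99% were mature by the same count. Of the members with at least 10 identity genes, 1 of 64 control and 4 of 46 haplodeficient cells were mature. Scrublet scores are high for barcodes that resemble doublets, 2 cells under 1 barcode. Without the members of highest score, 1 of 61 control and 6 of 82 haplodeficient members were mature. With 1 UMI in place of 2, 4 control members (5.06%) and 18 haplodeficient members (21.4%) were counted, while Fscn1 was detected in 2 control and 13 haplodeficient members and in 2 and 2 unmixed cells. A difference between the libraries was not detectable at 2 UMIs with this number of cells.

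The mature cells were of 2 kinds, distinguished after their values were seen. Most control members among them had high doublet scores, and whether these were doublets was not tested. The first kind had both Ccr7 and Fscn1, with 2 cells in each library. They had 5 to 8 identity genes in each library, below the 10 used above to check the label. The control cells held 7 and 16 Ccr7 UMIs and 13 and 17 Fscn1 UMIs, and the haplodeficient cells 6 and 19 Ccr7 UMIs and 18 and 18 Fscn1 UMIs. Their class II UMIs were few, 8 and 11 in the control and 20 and 24 in the haplodeficient cells, against a median of 136 and 138 in other unmixed cells. They held most of the Ccl5, a chemokine for T cells and natural killer cells, with 101 and 159 UMIs in the control and 72 and 200 UMIs in the haplodeficient cells. These 4 cells gave 260 of 271 control and 272 of 299 haplodeficient Ccl5 UMIs of unmixed cells. They also held Il12b, the shared chain of interleukins 12 and 23, at 4 and 20 UMIs in the control and 15 and 19 UMIs in the haplodeficient cells.

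The second kind had Ccr7 without Fscn1, and class II UMIs like those of the other cells. It comprised 1 unmixed control cell with 125 class II, 19 Ccr7, 21 Il12b and 23 Ccl22 UMIs, and 3 haplodeficient cells with 109, 124 and 203 class II UMIs and 2, 8 and 10 Ccr7 UMIs. Low class II was therefore seen in the cells with both genes and in none of these 4. Of these 4, the control cell had 8 identity genes and the haplodeficient cells had 10 to 13. A further haplodeficient member, with 1 rule UMI, 4 identity genes and macrophage genes, held 154 Ccl5, 20 Il12b and 69 Cxcl10 UMIs with 1 Ccr7 UMI, and a further unmixed haplodeficient cell held 14 Il12b, 15 Ccl5 and 19 Cd274 UMIs with neither Ccr7 nor Fscn1. Outside the rule, 18 control and 29 haplodeficient class II cells had Ccr7 and no Xcr1 or Clec9a UMI. They were counted with at least 2 UMIs of Ccr7 and Fscn1 together. The B cell gene Cd79a was detected in 2 of these control and 10 of these haplodeficient cells. Any mature type 1 cells without a UMI of either rule gene cannot be told apart from other Ccr7-positive cells there.

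**Figure D4:**
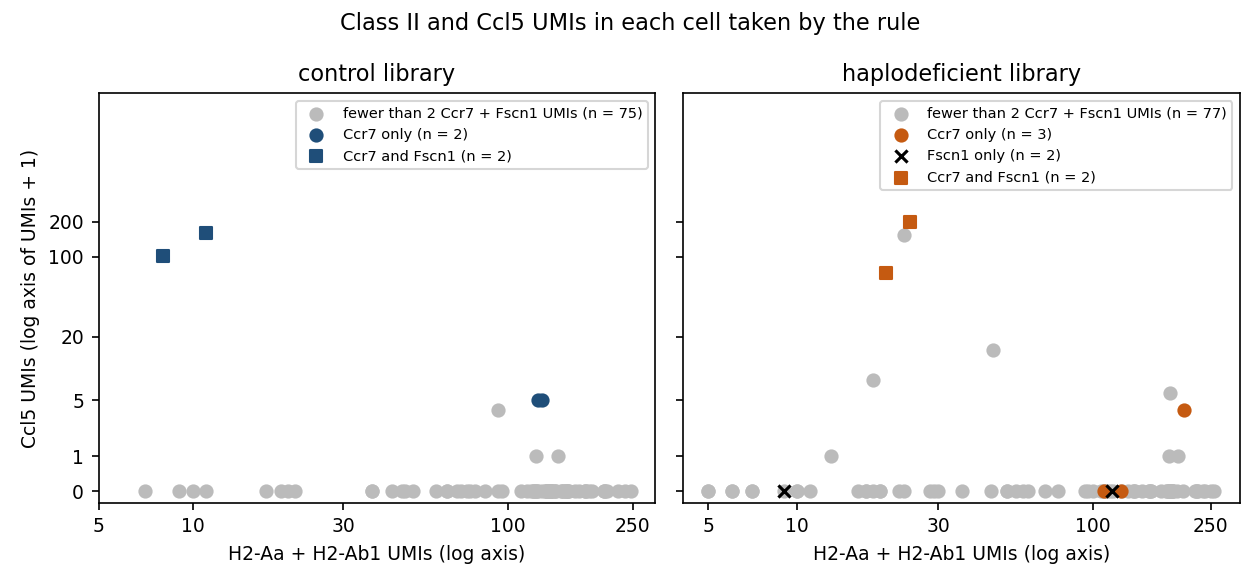
Ccl5 UMIs (log axis of UMIs + 1) against class II UMIs of H2-Aa and H2-Ab1 (log axis) in each cell taken by the rule, control library on the left and haplodeficient on the right. Squares are cells with Ccr7 and Fscn1, coloured circles cells with Ccr7 alone, crosses cells with Fscn1 alone and grey points the rest. The 4 squares sit at 8 to 24 class II UMIs and 72 to 200 Ccl5 UMIs, away from most other cells.

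Between mature and other unmixed cells, 63 of 1985 genes passed the size rule as higher in both libraries (3.17%) and 40 as lower (2.02%), and in all members 69 of 2393 (2.88%) and 38 (1.59%). Besides Ccr7 and Fscn1, which chose the cells, the largest differences were in Ccl5 and Il12b, then in Samsn1, Tmem123, AW112010, Bcl2l14, Rftn1, Zdhhc14, Plxnc1 and Serpinb9. Il12b stood at 1558 CPM in the 3 control mature cells and 0 in the other cells, and at 767 against 28.1 in the haplodeficient library. Relb stood at 692 against 38.1 and at 505 against 97.6, and Cd274 at 519 against 96.2 and at 654 against 199. Il4i1, an amino acid oxidase that limits T cells, stood at 831 against 3.32 and at 355 against 7.51 CPM. The difference in Relb and Cd274 between libraries was thus also present among the cells that were not mature.

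Cd86 and Cd83 differed little between mature and other unmixed cells. Cd86 stood at 796 CPM in control mature cells against 640 in the others, and at 785 against 659 in the haplodeficient library. Cd83 stood at 1073 against 1021 and at 953 against 953. Cd80 stood at 173 against 123 and at 187 against 90.1 CPM, and Cd40 at 69.2 against 26.5 and at 18.7 against 71.3, from 10 or fewer UMIs in the mature cells of each library. In all members Cd80 stood at 527 CPM in mature against 90.1 in other control cells and at 131 against 75.9 in the haplodeficient library.

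Wdfy4 stood at 138 CPM in control mature unmixed cells against 1587 in the others and at 785 against 1133 in the haplodeficient library, Tlr3 at 0 against 219 and at 18.7 against 146, and Naaa, a lysosomal amidase used as an identity gene, at 0 against 1356 and at 393 against 972. The haplodeficient values combine both kinds of mature cell. The 2 cells with Ccr7 and Fscn1 held 1 Wdfy4 UMI and no Naaa or Tlr3 UMI, whereas the 3 cells with Ccr7 alone held 7, 8 and 26 Wdfy4 UMIs and 5, 7 and 9 Naaa UMIs, against a median of 13 and 9 in the other cells, and 1 Tlr3 UMI in all. In the control library the 1 unmixed cell with Ccr7 alone held 2 Wdfy4 UMIs and no Naaa UMI. The control values rest on 3 cells and the haplodeficient values on 5, and each of the 3 control cells had fewer than 10 identity genes. Most mature control members had high doublet scores, and the part of doublets in the control values was not tested.

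Genes of chemokines for activated T cells passed the size rule in both sets of cells. Cxcl9, a ligand of Cxcr3 induced by interferon gamma, stood at 282 CPM in control unmixed cells (242 to 326) and at 948 in haplodeficient unmixed cells (871 to 1030), a ratio of 3.37 (2.84 to 4.01). It was detected in 12 of 64 control cells, the highest holding 50, 43 and 28 UMIs, and in 17 of 54 haplodeficient cells, the highest holding 140, 120 and 83 UMIs. In all members the levels were 246 and 619 CPM. The log2 ratio of Cxcl9 was 1.73 in unmixed cells, -1.28 in type 2 cells, 1.29 in macrophages and 1.18 over all retained cells. Cxcl9 thus came from a minority of cells in both libraries, and its haplodeficient level was also the higher in macrophages.

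Cxcl10, another ligand of Cxcr3, stood at 19.0 CPM in control unmixed cells, from 2 cells, and at 155 in haplodeficient unmixed cells, from 6 cells, 1 of which gave 59.3% of the UMIs. Its log2 ratio was 2.74 in unmixed cells, 2.18 in type 2 cells and 0.19 in macrophages. Of 32 listed interferon-response genes 16 were eligible in members with a median log2 ratio of 0.86, and 14 in unmixed cells with a median of 0.35. The size rule was passed by 6 and by 2 of them, all higher. The median of the same list was 0.55 over 10 eligible genes in type 2 cells without genes of other types. In macrophages it was 0.56 over 9 eligible genes, so the shift was not particular to type 1 cells. Irf1, a transcription factor induced by interferon, stood at 69.6 and 142 CPM in unmixed cells from 16 and 20 cells, and Isg15, a ubiquitin-like protein, at 98.1 and 147. The receptor chain Ifngr1 was in the other direction, at 367 and 259 CPM, as was the chemokine receptor Cxcr3 at 55.4 and 20.5.

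Identity genes were somewhat lower in the haplodeficient library. Of 24 listed genes outside the rule 19 were eligible in unmixed cells, 14 lower and 5 higher, with a median log2 ratio of -0.39, and in members 18 were eligible with a median of -0.40. Xcr1, used by the rule, stood at 551 and 365 CPM in unmixed cells, and Clec9a at 304 and 293. Irf8 differed by less than counting error, at 1182 and 1090 CPM (ratio 0.922, 0.828 to 1.03), as did Batf3 at 114 and 142 (1.24, 0.895 to 1.73). Cadm1, an adhesion molecule, stood at 1119 and 738 (0.660, 0.584 to 0.745), Naaa at 1294 and 919 (0.710, 0.636 to 0.793) and Flt3 at 283 and 200 (0.704, 0.553 to 0.894). Plpp1, a lipid phosphatase, was the 1 gene past the size rule, at 286 and 118 CPM from 47 and 29 cells, and in all members, where endothelial genes were carried by 12 haplodeficient cells, it stood at 227 and 233.

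Genes with the largest differences between libraries in all members belonged largely to other cell types. The lowest in the haplodeficient cells were the proximal tubule genes Kap, at 1701 and 1.07 CPM, and Slc34a1, a phosphate transporter, at 476 and 2.14. Kap was also lower over all retained cells, with a log2 ratio of -4.20, and 61.9% of its control member UMIs came from 1 cell. Among the highest were the endothelial genes Plvap, at 3.35 and 165 CPM, and Kdr, a VEGF receptor, at 6.71 and 128, and Ly6d, a gene of B cell precursors and plasmacytoid cells, at 7.82 and 153. In unmixed cells Plvap and Ly6d were at 0 in both libraries, and Kdr had 1 control UMI and none in the haplodeficient cells. Gpnmb, a lysosomal glycoprotein of macrophages, stood at 1.12 and 203 CPM with 100% of the haplodeficient UMIs from 1 cell, and Retnla at 0 and 153 with 99.3% from 1 cell.

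Of the 29 genes higher in the haplodeficient unmixed cells, 9 drew more than 50% of their UMIs from a single cell. The leading 1 of these cells, with 7 identity genes, 1 rule UMI and 18988 UMIs, held 190 Gpnmb, 117 Mmp12, 62 Olr1 and 58 Fabp5 UMIs, and 28 UMIs of the macrophage panel that fell short of the limit for another type. The ribosomal protein gene Rpl29 was higher in the haplodeficient library in every population, at 193 and 718 CPM in unmixed cells and with log2 ratios of 1.87 there, 1.84 in type 2 cells, 1.77 in macrophages and 2.11 over all cells.

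The 73 genes lower in the haplodeficient unmixed cells were spread over many cells. A single cell gave at most 25% of the UMIs for 69 of them, and the median gene was detected in 39 cells of the library where it was higher. Kap was among them, with 105 control UMIs in 45 of 64 cells and none in the haplodeficient cells (upper limit 6.29 CPM), and mt-Nd3, a mitochondrial gene, at 1000 and 324 CPM with a log2 ratio of -1.61 here, -1.66 in type 2 cells, -1.74 in macrophages and -2.52 over all cells. The log2 ratio of Kap was -5.10 here, -4.38 in type 2 cells, -4.12 in macrophages and -4.20 over all cells. The free-RNA share estimated for unmixed cells was 1.64% and 1.63% of all their UMIs, taken from markers of other cell types, with Kap among those used for the control library. At that share the UMIs expected from free RNA were 100% of the control Kap UMIs and 12.1% of the control mt-Nd3 UMIs. Of the 73 genes 2 had at least 50% of their UMIs expected from free RNA, against 17 of the 127 lower genes in all members. In all members the estimated share was 12.8% in control and 4.60% in haplodeficient cells. Unmixed cells were kept for few UMIs of the same markers, so their share is low by the choice of cells. The 2 counts therefore cannot show how much of the lower genes is free RNA.

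Others were lower by more here than in the neighbouring populations, a difference that was not tested. Mef2c, a transcription factor, stood at 256 and 59.7 CPM in 40 of 64 and 15 of 54 unmixed cells, with log2 ratios of -2.01 here, -0.42 in type 2 cells and 0.01 in macrophages. In all members, which hold plasmacytoid and endothelial genes, Mef2c stood at 270 and 207 CPM and did not pass the size rule. Fam107b stood at 169 and 47.7 CPM, with log2 ratios of -1.72, 0.44 and -0.47. Chsy3, a chondroitin sulfate synthase, stood at 264 and 68.2 CPM, with log2 ratios of -1.88, -1.38 and -0.55. Ube2h, a ubiquitin-conjugating enzyme, stood at 256 and 88.7 CPM, with log2 ratios of -1.48, -0.12 and -0.74.

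**Figure D5:**
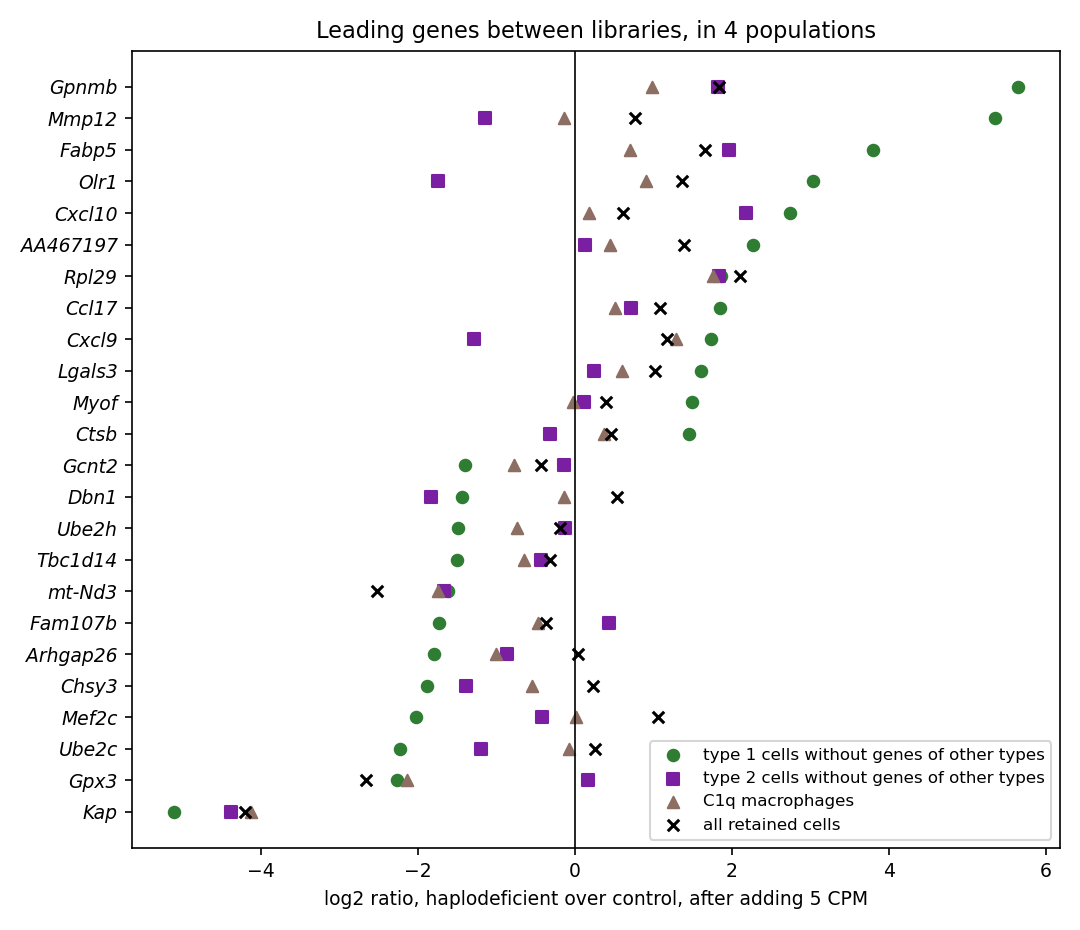
Log2 ratio of haplodeficient to control level, after adding 5 CPM, for the 12 genes with the highest and the 12 with the lowest ratio in type 1 cells without genes of other types (circles), with the same ratio in type 2 cells without genes of other types (squares), C1q macrophages (triangles) and all retained cells (crosses). Rpl29, mt-Nd3 and Kap show like ratios in all 4 populations, whereas Mef2c is at -2.01 in type 1 cells and 0.01 in macrophages.

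Part of the cells were dividing. With at least 2 UMIs of Mki67, Top2a, Birc5 and Cdk1 together, 11 of 79 control members (13.9%, 7.16 to 23.5%) and 8 of 84 haplodeficient members (9.52%, 4.20 to 17.9%) were counted. So were 14.3% and 6.99% of the 98 and 143 type 2 cells not filtered for genes of other types. Among unmixed cells 10 of 64 and 6 of 54 were dividing, with a median depth of 14816.5 and 17317 UMIs against 8989.5 and 10640.5 in the others. Dividing cells kept a median of 14 and 15 identity genes and had no Ccr7 UMI. Of 18 cell-cycle genes 7 were eligible in unmixed cells with a median log2 ratio of -0.42, and 1 passed the size rule, Ube2c, a ubiquitin-conjugating enzyme of mitosis. The shares did not differ between the libraries beyond counting error.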

How the data were processed

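The authors deposited gene-by-barcode matrices of raw UMI counts with no normalization for 1 control and 1 haplodeficient library, made with Cell Ranger 4 per the file headers and on mm10 per the submitters' processing notes; all features are gene expression, so the hashing named in the labels was not used here. Counts were read unfiltered, and barcodes with at least 500 UMIs, 200 genes and at most 50% mitochondrial UMIs were kept (9452 and 10026). Free RNA was taken from barcodes with 1 to 100 UMIs. Doublets were left in, and Scrublet (scanpy 1.11.5) was an alternative. UMIs were summed per library and set to CPM, and genes are named by the rules in the report plus the 12 or 15 leading genes of each comparison. Intervals are exact Poisson, Clopper-Pearson or conditional binomial at 95%, computed with SciPy 1.17.1. Shares, medians and counts were recomputed under the alternatives given below. Gene positions follow GENCODE on GRCm38, which matched 99.8% of gene IDs. The members and gene lists were chosen with earlier results of these data known. Comparison with type 2 cells and with macrophages used the same 2 libraries, so all comparisons share the 1 control library.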

Additional observations from a re-analysis of the deposited data

How the results depend on the processing

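The settings added after seeing the data were cells without genes of other types, cells with at least 10 of 17 identity genes and cells without the deepest member. The ratio of member shares, 1.00 (0.728 to 1.38), was 0.678 with at least 10 identity genes (0.454 to 1.01) and 0.404 among Ptprc-positive cells (0.285 to 0.572), and between 0.794 and 1.27 under the other 10 settings. The 228 genes past the size rule became 151 with 2 rule UMIs, 151 without 7 genes of other lineages (41 higher, 110 lower), 132 with the rule applied after thinning, 102 without genes of other types (29 higher, 73 lower), 113 with 10 identity genes (24 higher, 89 lower), 611 at a mean of 10 CPM and 957 without a filter, the last 2 because more genes were tested. The 241 genes against type 2 cells became 539 and 647 with these last 2 filters. The medians of the cross-presentation list (-0.03 to 0.15) and the maturation list (0.09 to 0.72) were set against the counting error of single genes. In all 19 settings they moved by less than the median half-width of their genes' 95% intervals, 0.277 and 0.440 in log2. The ratio of mature shares, 1.65 (0.418 to 7.67), ranged from 0.940 after thinning to 5.57 with 10 identity genes, and a limit of 1 UMI gave 4 control against 18 haplodeficient members. Among 95 genes in 19 settings, 1667 of 1805 values kept their side of the size rule, 61 lost it, 70 gained it and 7 reversed. The reversed log2 ratios were 0.79 for Lgmn and -0.40 for Kdr without genes of other types, 0.81 for Ube2c without dividing cells, and for Gpnmb -0.36 with 2 rule UMIs, -0.29 below 3 C1q UMIs, -0.61 after thinning and -0.38 with 10 identity genes, settings that leave out the 1 cell that holds its UMIs. Cxcl9 (1.02 to 2.13) and Cxcl10 (1.86 to 5.41) passed in all 19 settings. Scrublet marked 18 of 79 control and 2 of 84 haplodeficient members. Among unmixed cells it marked 11 control and 0 haplodeficient cells, so the unmixed control cells are not free of high doublet scores. Without the marked cells, 1 of 61 control and 6 of 82 haplodeficient members were mature. Ccl5 and Il12b, which did not pass the size rule in all members, passed it in that setting. No paired analysis was possible because each group has 1 library, for which no library could be left out either.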

Other observations

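Growth factor and sensor genes of the cells were level between the libraries, with a median log2 ratio of 0.05 over 16 eligible genes in members and 0.00 in unmixed cells and none past the size rule. Csf2rb, a receptor chain for GM-CSF, stood at 214 and 353 CPM in unmixed cells (ratio 1.65, 1.32 to 2.07) and at 178 and 196 in type 2 cells. Havcr2, the inhibitory receptor TIM-3, stood at 343 and 281 CPM in unmixed cells and at 48.3 and 57.4 in type 2 cells. Il18, an inflammasome cytokine, stood at 80.7 and 47.8 CPM.

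Of the 16 listed genes of oxygen sensing 5 were eligible in unmixed cells, with a median log2 ratio of 0.06 and none past the size rule. Hif1a stood at 139 and 155 CPM and Ldha, a glycolytic enzyme, at 245 and 247, both level within counting error. Pfkfb3, a regulator of glycolysis, stood at 74.4 and 39.2. Immediate-early and heat-shock genes, which respond to tissue dissociation, had a median log2 ratio of 0.70 over 15 eligible genes in members, 3 of them past the size rule, and -0.10 over 13 in unmixed cells, with none past it. Jun stood at 534 and 1149 CPM in members and at 236 and 319 in unmixed cells.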
